A study of Drosophila melanogaster with 6 samples.

Results

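The comparison described here set the library of cells treated with JQ1 for 4 h against the library of cells treated with JQ1 for 2 h, that is 2 of the 6 RNA-seq libraries of the series. They were chosen by their treatment labels, and the ratio of the pair holds no DMSO library. All 6 libraries came from S2-DRSC cells, a cultured Drosophila melanogaster line with blood cell character, which received 10 µM JQ1 for 1, 2, 4 or 20 h or the solvent DMSO for 1 or 20 h. Each condition was 1 library without replicate, so no ratio below has a test, and the ratio of DMSO 20 h to DMSO 1 h served as the background. Of 14869 genes listed, 8690 averaged 10 or more scaled counts across all libraries and were compared.

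JQ1 binds the bromodomains of BET proteins where they would hold acetylated lysines, and so takes these proteins off chromatin. Flies carry fs(1)h as their BET gene, and its protein FSH is related to the mammalian Brd proteins that help RNA polymerase II to leave the promoter and elongate. An mRNA level after a block of transcription depends on new synthesis and on the decay of the mRNA already made, so short-lived mRNAs can reach a new level early and long-lived ones late. The comparison of 4 h with 2 h asks which genes were still moving at that time and which had already settled.

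The libraries held between 24547077 and 29823608 reads in genes, with 26769735 at 4 h and 29823608 at 2 h. A scaled count is a read count divided by a library factor from the 100 genes most abundant in DMSO, 49 of which encode cytoplasmic ribosomal proteins. All 10 blood cell markers examined were measured. Their scaled counts summed to 780575 at 4 h and 716654 at 2 h, within a range of 592190 to 1070430 over the series. Most of the sum came from Col4a1, Pxn and vkg. Single markers went both ways: Col4a1, vkg and Hml were higher at 4 h than at 2 h, and srp, Pxn, NimC1, eater, crq, ush and He were lower. Of 10 matched markers of neurons, muscle, germ line, fat body and glia, 4 passed the filter, and the sum was 1677 at 4 h and 1881 at 2 h, nearly all of it from Mef2 and elav. The gene of the drug's target, fs(1)h on the X chromosome, had 9067 scaled counts at 4 h and 9472 at 2 h (log2 ratio -0.06, 95% counting interval -0.10 to -0.02), and 8417 at 1 h and 13088 in DMSO 1 h. The sign of this ratio depended on the scaling, with 0.08 under DESeq2 size factors, 0.05 under TMM factors and 0.08 when mitochondrially encoded genes set the scale.

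Between 2 and 4 h the changes were mostly downward. At 4 h 1110 genes (12.8%) were lower past 1.5-fold than at 2 h and 140 (1.61%) were higher, while in the DMSO pair 148 (1.70%) were lower and 185 (2.13%) were higher. Past 2-fold, 336 genes (3.87%) were lower and 22 (0.253%) were higher, against 31 (0.357%) lower and 38 (0.437%) higher in the DMSO pair. A gene was said to have levelled off when the larger of its values exceeded the smaller by less than 25%, here called within 25%. This held for 5824 genes (67.0%) between 4 and 2 h, against 7803 (89.8%) in the DMSO pair. The median log2 ratio of all genes was -0.12, with 5th and 95th percentiles of -0.91 and 0.34, and in the DMSO pair it was 0.05, with percentiles of -0.28 and 0.37.

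The position of this median depended on the scaling. It lay between -0.13 and 0.02 over the scalings tried, and the count of lower and higher genes became 717 and 278 with DESeq2 size factors, 765 and 244 with TMM factors, and 729 and 261 when the mitochondrially encoded genes set the scale. Lower genes made up 88.8% of the genes past 1.5-fold here, 72.1% with DESeq2 size factors, 75.8% with TMM factors and 73.6% with the mitochondrial scale. Gene groups are therefore also given as the distance of their median from the median of all genes. With DESeq2 size factors every log2 ratio of 4 h over 2 h was about 0.15 higher, so that genes between -0.73 and -0.58 in the values below no longer passed 1.5-fold. The distance from all genes kept its sign for every list under the 6 other scalings. Genes at the edges of the classes lay at log2 ratios of -0.585 on either side of the lower threshold, and at 0.590 inside and 0.583 outside the upper one.

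**Figure D1:**
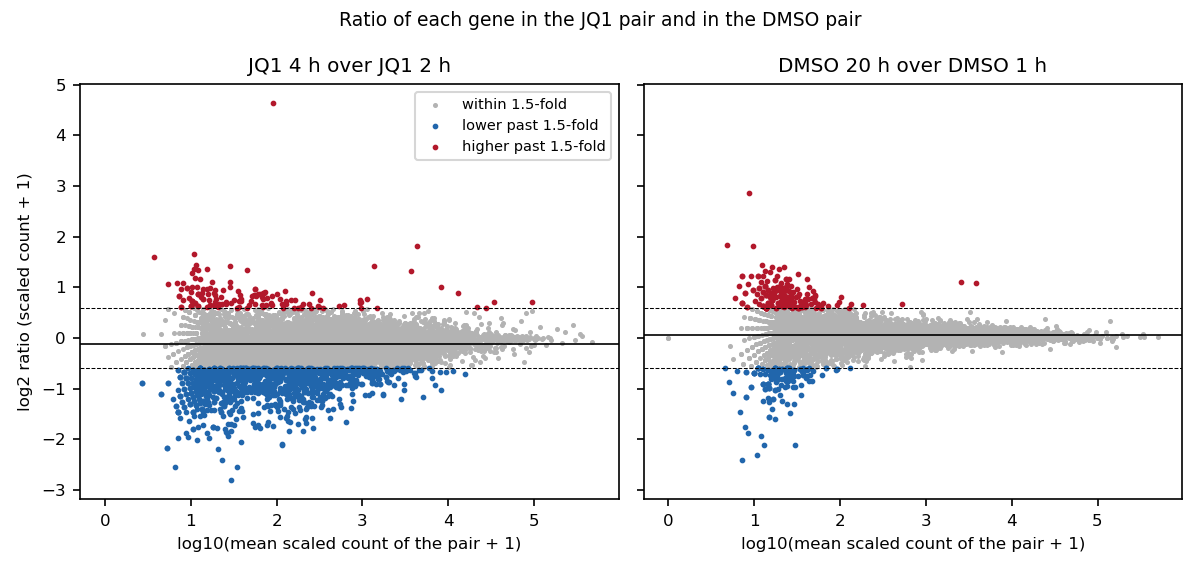
Log2 ratio of each tested gene (scaled count + 1) against the log10 of its mean scaled count + 1 in the pair, for JQ1 4 h over JQ1 2 h (left) and DMSO 20 h over DMSO 1 h (right). Dashed lines mark 1.5-fold and the solid line the median, and blue points below the lower dashed line number 1110 in the JQ1 pair and 148 in the DMSO pair.

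The excess of lower genes was not restricted to genes with few reads. Genes were divided by DMSO level into 5 groups of equal size. In the lowest group (up to 109 scaled counts) 25.03% were lower past 1.5-fold at 4 h, against 8.46% in the DMSO pair. In the next group (109 to 669) the shares were 19.7% in the JQ1 pair and 0.0575% in the DMSO pair, and in the middle group (669 to 1620) they were 10.9% and 0%. In the top group, from 3872 scaled counts upward, 2.88% were lower and 86.2% were within 25%. The share of lower genes thus became smaller with each step in level. Among the 7340 genes that averaged 50 or more scaled counts, 740 (10.1%) were lower and 64 (0.872%) higher, against 7 (0.0954%) and 20 (0.272%) in the DMSO pair. Where the counting interval also had to leave out 0, 861 genes (9.91%) were lower and 83 (0.955%) higher, against 31 (0.357%) and 46 (0.529%) in the DMSO pair.

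Genes with short transcripts were lower more often, with 17.6% in the shortest of 5 equal groups by exonic length, 15.9%, 11.6% and 10.3% in the next, and 8.76% in the longest. Over 7987 genes with an annotated length the rank correlation of the ratio with exonic length was 0.07, over genes of the same libraries, and it was 0.05 in the DMSO pair. On the X chromosome 9.75% of genes were lower, against 13.3% to 13.9% on the large autosome arms and 5.56% (4 of 72) on chromosome 4. The median log2 ratio was nonetheless -0.13 on X, 2R and 3L alike. Genes whose exons overlap a gene on the other strand were lower in 13.0% of cases and other genes in 12.8%.

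Genes that had responded in the first hour were then followed between 2 and 4 h. In JQ1 1 h against DMSO 1 h, a ratio that shares no library with the 4 h over 2 h ratio, 1633 genes (18.8%) were lower past 2-fold and 92 (1.06%) higher past 2-fold. Of the 1633 early low genes, 1059 (64.8%) were within 25% between 2 and 4 h, 200 (12.2%) were lower again past 1.5-fold, 54 (3.31%) were higher and 320 lay in between. On this scale these shares were close to those of all genes, where 67.0% were within 25% and 12.8% lower. The exception was the share of higher genes, at 3.31% against 1.61%. With DESeq2 size factors, 434 genes were early low, of which 50% had levelled off, 6.68% were lower again and 13.4% were higher. Over all genes, 717 of 8681 were lower and 278 were higher with these factors. Early low genes were thus higher more often than all genes there. Of the 92 early high genes, 44 (47.8%) had levelled off, 12 were lower and 12 were higher at 4 h. Of 2492 genes (28.7%) within 25% of DMSO 1 h at 1 h, 1808 (72.6%) were within 25% between 2 and 4 h as well and 237 (9.51%) were lower at 4 h.

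The levels of these classes, as the median percentage of the DMSO 1 h level, give their course. The 1059 early low genes that levelled off stood at 40.8%, 35.3%, 35.4% and 49.6% at 1, 2, 4 and 20 h of JQ1. The 200 that went on downward stood at 40.9%, 26.6%, 14.1% and 15.03% at these times. Both classes thus had nearly the same percentage at 1 h and differed from 2 h on. Their median DMSO levels also differed, with 802 scaled counts in the class that levelled off and 246 in the class that went on downward. The 54 early low genes that were higher at 4 h stood at 31.3%, 23.98%, 44.2% and 52.4%. The 237 late genes, near the DMSO level at 1 h, stood at 88.7%, 93.5%, 50.3% and 47.6% at 1, 2, 4 and 20 h, and their median DMSO level was low, at 47.5 scaled counts against 1057 over all genes. The 1 h level and the step from 2 to 4 h of these classes restate the rule that defined them. The 20 h library did not enter that rule, but its percentage is taken of DMSO 1 h, which did.

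**Figure D2:**
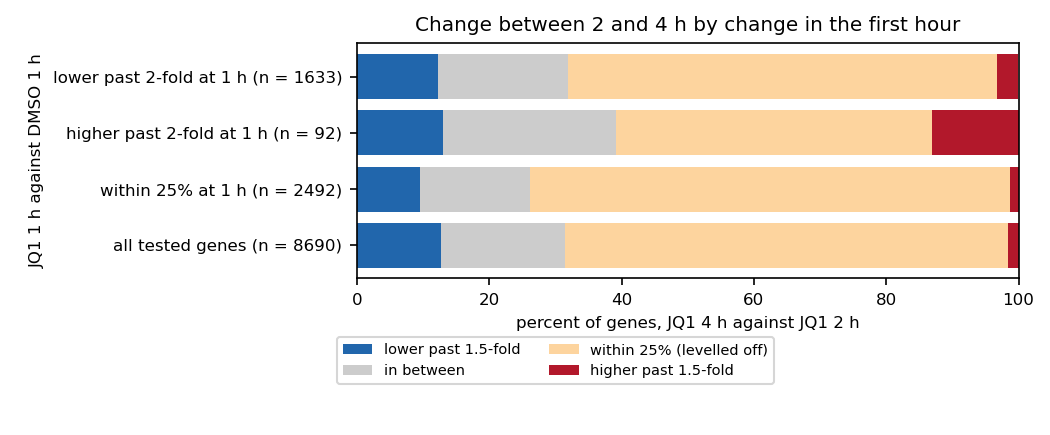
Percent of genes in each class of change between 2 and 4 h of JQ1 (horizontal axis), for genes grouped by their change in JQ1 1 h against DMSO 1 h (rows, with the number of genes). Genes within 25% make up 64.8% of the early low genes and 67.0% of all genes, and genes higher at 4 h 3.31% of the early low genes and 1.61% of all genes.

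The 20 h and 1 h libraries of JQ1, which the 4 h over 2 h ratio did not use, showed the same directions. Of the 1110 genes lower at 4 h, 782 (70.5%) were also lower past 1.5-fold at 20 h than at 1 h and 57 (5.14%) were higher, with a median log2 ratio of -1.18. Of the 140 higher genes, 93 (66.4%) were higher and 11 (7.86%) lower at 20 h than at 1 h, with a median of 1.06. Over all genes 23.7% were lower and 19.8% higher, with a median of 0.01. The genes that were lower at 4 h stood at a median of 29.5% of the DMSO 1 h level at 4 h and at 29.5% at 20 h. All genes stood at 57.6% and 67.4% at these times. The 4 h library also served to choose this class, so its step from 4 to 20 h cannot show whether the fall had ended. The 140 higher genes stood at 61.9%, 48.5%, 86.1% and 115.3% at 1, 2, 4 and 20 h. Of these 140 genes 54 (38.6%) had been early low genes, against 18.8% of all genes.

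Among genes that averaged 50 or more scaled counts, with an interval that left out 0 and a DMSO pair ratio within 1.5-fold, the 12 lowest had log2 ratios of -2.81 to -1.83. Phyhd1, the lowest, had 185 scaled counts in DMSO 1 h and 196 in DMSO 20 h, then 92.3, 51.1, 6.45 and 3.004 at 1, 2, 4 and 20 h of JQ1 (log2 ratio of 4 h over 2 h -2.81, 95% counting interval -4.36 to -1.86). Fancl, the ubiquitin ligase of the Fanconi anaemia DNA repair pathway, had 243 and 207 in the DMSO libraries, then 99.4, 58.8, 9.21 and 10.0 at 1, 2, 4 and 20 h (log2 ratio -2.55, -3.80 to -1.71). Both genes were lower at each of the first 3 JQ1 times and stayed low at 20 h. MetRS-m, which charges the mitochondrial methionine tRNA, had 525 and 574 in the DMSO libraries and 332, 186, 42.4 and 53.1 at 1, 2, 4 and 20 h (log2 ratio -2.11, -2.62 to -1.67). Bhmt, named for betaine-homocysteine methyltransferase, had 1134 and 1201 in the DMSO libraries and 537, 187, 43.3 and 40.1 over the JQ1 times (log2 ratio -2.08, -2.59 to -1.65). Ipk1, an inositol phosphate kinase, had 577 and 641 in the DMSO libraries and 401, 215, 59.9 and 47.1 over the JQ1 times (log2 ratio -1.83). The other members were CG4238, CG8607, CG14135, Targ3, CG13148, CG13771 and Dtd, a deacylase of D-aminoacyl-tRNAs. At 1 h all 12 were lower than DMSO 1 h, by log2 ratios of -1.28 to -0.52. Of the 12, 5 overlap a gene on the other strand (Fancl, CG8607, Targ3, CG13148 and Dtd), and the use of strand in the counting is not given in the sources used here.

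The 12 highest by the same rule had log2 ratios of 0.89 to 1.82 and followed different courses. CG2065, a predicted short-chain dehydrogenase, was level until 2 h, with 2106 and 2071 scaled counts in the DMSO libraries, then 1698, 1903, 6718 and 4291 at 1, 2, 4 and 20 h of JQ1 (log2 ratio 1.82, 1.75 to 1.89). GstE3, a glutathione transferase, had 1648 and 1815 in the DMSO libraries and 1014, 742, 1977 and 1896 at 1, 2, 4 and 20 h (log2 ratio 1.41, 1.30 to 1.53). Cyp4e2, a cytochrome P450, had 4330 and 4294 in the DMSO libraries and 2323, 2077, 5182 and 8877 over the JQ1 times (log2 ratio 1.32). GstE3 and Cyp4e2 were below their DMSO level at 1 and 2 h and above it at 4 h.

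A second course went upward from 1 h on. Ppn, which encodes the extracellular matrix glycoprotein papilin, had 3129 and 3003 scaled counts in the DMSO libraries and 2770, 5420, 10832 and 21284 at 1, 2, 4 and 20 h (log2 ratio of 4 h over 2 h 1.00, 0.95 to 1.04). The gene scaf, for a secreted serine protease homologue, had 6044 and 5980 in the DMSO libraries and 6397, 9180, 16974 and 61394 over the JQ1 times (log2 ratio 0.89, 0.85 to 0.92). Fas3, a cell adhesion molecule of septate junctions, had 16.7 and 19.5 in the DMSO libraries and 25.5, 47.7, 89.3 and 114 over the JQ1 times. Rh7, a rhodopsin, had 60.2 and 72.8 in the DMSO libraries and 79.2, 179, 332 and 780. Each of these 4 genes was higher at every later JQ1 time than at the one before. The remaining course was that of CG10053, CG11035, CG17652, Esp and CG8159, which at 1 h had been low, by log2 ratios of -2.34 to -1.66 against DMSO 1 h. CG17652, for example, had 404 in DMSO 1 h and 107, 85.2, 164 and 223 over the JQ1 times (log2 ratio 0.94, 0.58 to 1.31). At 20 h CG11035, CG17652 and CG8159 were below both DMSO libraries, CG10053 was above both with 172, against 147 and 136 in DMSO, and Esp lay between them with 89.1, against 82.4 and 98.8 in DMSO. CG11035, CG17652 and CG8159 overlap a gene on the other strand.

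**Figure D3:**
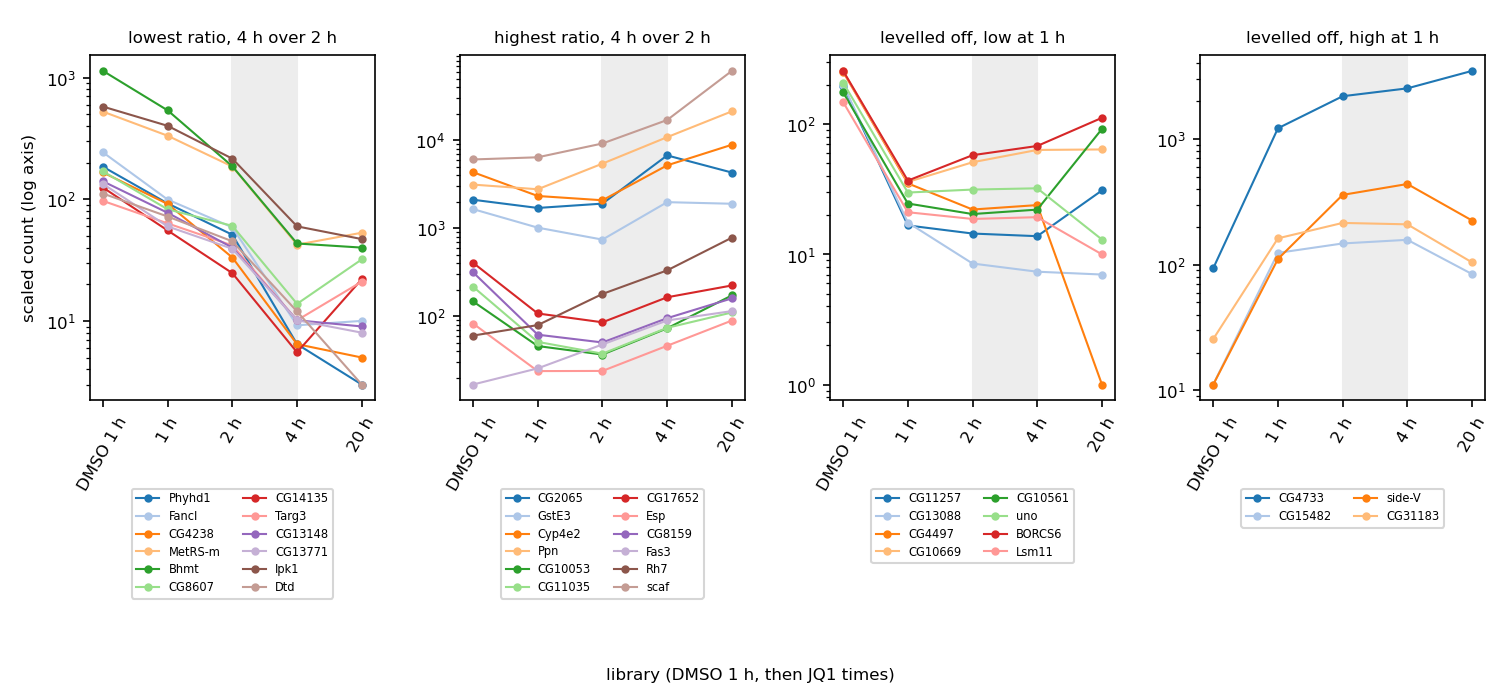
Scaled counts (log axis) of the genes with the 12 lowest and 12 highest ratios of 4 h over 2 h, and of 8 early low and 4 early high genes that levelled off, in DMSO 1 h and at 1, 2, 4 and 20 h of JQ1, 1 library per point, with the interval from 2 to 4 h shaded. CG2065 steps from 1903 scaled counts at 2 h to 6718 at 4 h, while CG11257 stays at 14.5 and 13.8.

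The genes with the deepest early loss that then levelled off were low in counts. The 8 lowest at 1 h among genes within 25% between 2 and 4 h were CG11257, CG13088, CG4497, CG10669, CG10561, uno, BORCS6 and Lsm11, with log2 ratios of -3.48 to -2.75 at 1 h against DMSO 1 h. CG11257 had 197 and 181 scaled counts in the DMSO libraries and 16.7, 14.5, 13.8 and 31.0 at 1, 2, 4 and 20 h (log2 ratio of 4 h over 2 h -0.06, with a wide counting interval of -1.17 to 1.02). Lsm11, a component of the U7 particle that processes histone pre-mRNA, had 148 and 146 in the DMSO libraries and 21.1, 18.7, 19.3 and 10.0 over the JQ1 times (log2 ratio 0.04, -0.89 to 0.98). BORCS6, a subunit of the complex that positions lysosomes, had 257 and 235 in the DMSO libraries and 36.9, 57.9, 68.2 and 112 over the JQ1 times. The intervals of these 8 genes include 0 and also changes past 25%, and 5 of the 8 overlap a gene on the other strand.

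Among early high genes, CG4733 had 93.6 and 105 scaled counts in the DMSO libraries, then 1214, 2181.8, 2520 and 3470 at 1, 2, 4 and 20 h of JQ1 (log2 ratio of 4 h over 2 h 0.21, 0.13 to 0.29). CG31183 had 25.6 and 20.8 in the DMSO libraries and 162, 215, 209 and 104 over the JQ1 times (log2 ratio -0.04, -0.30 to 0.23). CG15482 and side-V, a cell surface protein of the Sidestep family, had 157 and 437 scaled counts at 4 h and 147 and 359 at 2 h. All 4 genes had most of their increase behind them at 2 h.

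The gene functions were then compared by 54 lists, leaving aside 3 lists chosen after the values were seen. Of the 54, 45 had a median within 0.15 of that of all genes, 3 lay further below it and 6 further above it. The 3 were mitosis, DNA replication and mitochondrial ribosomal proteins. The 6 were RNA polymerase I subunits (0.35), small heat shock proteins (0.26, 4 tested), ribosome biogenesis (0.23), autophagy (0.20), Integrator (0.19) and apoptosis (0.17). In the DMSO pair no list lay beyond 0.15, and the farthest was at a distance of 0.12. Of the 54 lists, 32 had a member lower past 1.5-fold, 5 had a member higher past 1.5-fold and 19 had neither. The share of lower members was above the 12.8% of all genes in 9 lists.

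**Figure D4:**
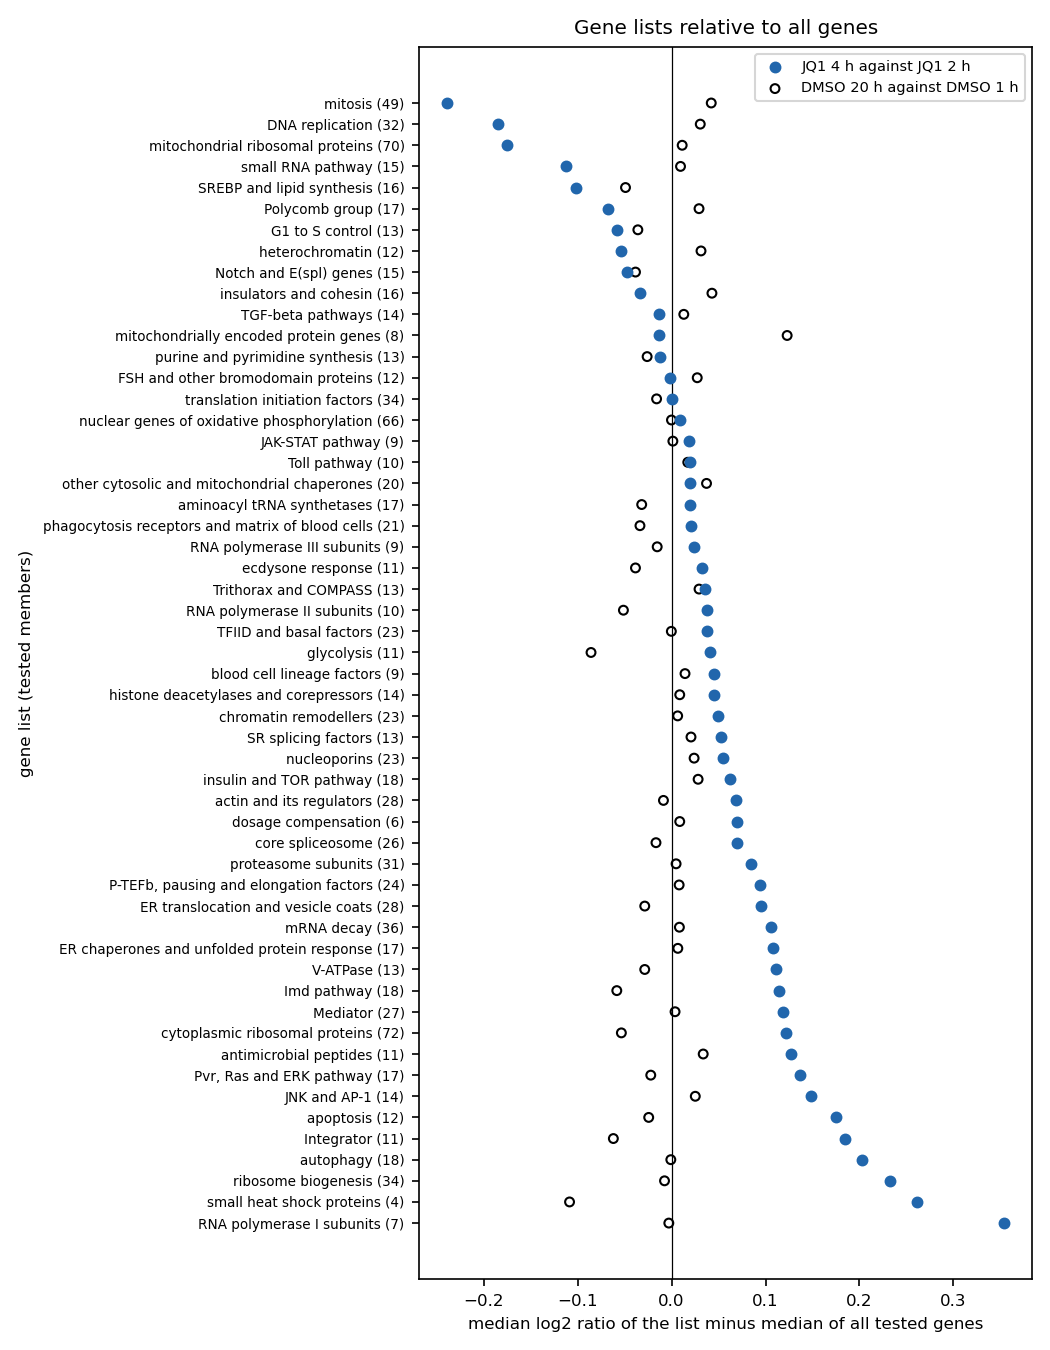
Distance of the median log2 ratio of each gene list from the median of all tested genes (horizontal axis), for JQ1 4 h against 2 h (filled) and DMSO 20 h against 1 h (open), with the number of tested members in brackets. The 3 lists chosen after the values were seen are not drawn. Mitosis lies lowest of the drawn lists at -0.24 and RNA polymerase I subunits highest at 0.35, while the open points stay within 0.12 of 0.

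Of these 54 lists, mitosis had the lowest median. Of 49 mitosis genes tested, 7 (14.3%) were lower past 1.5-fold at 4 h and none was higher, 23 were within 25%, and 42 lay below the median of all genes. Their median log2 ratio was -0.36, a distance of -0.24 from all genes, against a distance of 0.04 in the DMSO pair. The 14.3% is near the 12.8% of all genes, and the list lay below them by a small shift of most members. Over all genes the share of lower genes was 25.03% in the group with the lowest DMSO level and 2.88% in the top group. The list was not matched for level. Over the other scalings 3 to 7 of the 49 were lower and none was higher. The kinetochore gene rod had 7944 and 8981 scaled counts in the DMSO libraries and 5069, 3896, 1690 and 1169 at 1, 2, 4 and 20 h (log2 ratio of 4 h over 2 h -1.20, -1.28 to -1.13). Incenp, a scaffold of the chromosomal passenger complex, had 1120 at 4 h and 1948 at 2 h (-0.80, -0.90 to -0.70). The mitotic kinase gene polo had 3023 at 4 h and 5089 at 2 h (-0.75, -0.81 to -0.69). The centromeric histone gene cid had 59.9 at 4 h and 99.6 at 2 h (-0.73, -1.20 to -0.29). Each of the 4 was lower at every later JQ1 time. Of the 26 mitosis genes that were early low genes, 14 had levelled off and 3 were lower again, and of the other 23, 9 were within 25% and 4 were lower. Between 1 and 20 h of JQ1 the list lay 0.94 below all genes.

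DNA replication genes also lay below all genes. Of 32 tested, 7 (21.9%) were lower, against 12.8% of all genes, and none was higher, 16 were within 25%, and the median of -0.31 lay at -0.18 from all genes, against 0.03 in the DMSO pair. Prim1, a subunit of DNA primase, had 763 and 777 scaled counts in the DMSO libraries and 470, 280, 133 and 62.1 at 1, 2, 4 and 20 h (log2 ratio -1.07, -1.37 to -0.79). Mcm7, a subunit of the replicative helicase, had 1118 at 4 h and 2087 at 2 h (-0.90, -1.001 to -0.80). Orc6, of the origin recognition complex, had 71.8 at 4 h and 128 at 2 h (-0.82), and RfC4, of the clamp loader, had 973 at 4 h and 1622 at 2 h (-0.74). Mcm7 and Orc6 overlap genes on the other strand. Over the other scalings 5 to 7 of the 32 were lower. Between 1 and 20 h of JQ1 the list lay 1.43 below all genes, so that its main loss lay outside the interval from 2 to 4 h.

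Among 13 genes of G1 to S control, 2 (15.4%) were lower, near the 12.8% of all genes, and none was higher. The list median lay at -0.06 from all genes. CycE, the cyclin of S phase entry, had 2283 and 2054 scaled counts in the DMSO libraries and 1081, 921, 526 and 146 at 1, 2, 4 and 20 h (log2 ratio of 4 h over 2 h -0.81, -0.96 to -0.66). Cks30A, a cofactor of cyclin-dependent kinases, had 264 at 4 h and 428 at 2 h (-0.69, -0.91 to -0.48). In nucleotide synthesis, Ts, thymidylate synthase, had 1411 at 4 h and 2394 at 2 h (-0.76, -0.85 to -0.67). At 1 h against DMSO 1 h the log2 ratio of Ts was -0.34, so that it changed less in the first hour than between 2 and 4 h. The median of the 13 genes of this list lay at -0.01 from all genes, and Ts overlaps a gene on the opposite strand.

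Mitochondrial ribosomal proteins, which build the ribosome of the organelle, lay below all genes between 2 and 4 h and not at 1 h. Of 70 tested, 10 (14.3%) were lower past 1.5-fold, near the 12.8% of all genes, none was higher, and 50 lay below the median of all genes, with a list median of -0.30 at a distance of -0.17, against 0.01 in the DMSO pair. Over the other scalings 7 to 10 were lower, and this list was likewise not matched for level. At 1 h 1 of the 70 had been an early low gene, and the list lay 0.09 above all genes in that ratio. In the step from 1 to 2 h, which shares the 2 h library with the ratio of 4 h over 2 h, it lay 0.27 below all genes. mRpL46 had 814 and 897 scaled counts in the DMSO libraries and 583, 327, 133 and 70.1 at 1, 2, 4 and 20 h (log2 ratio -1.30, -1.59 to -1.02). mRpS6 had 55.3 at 4 h and 118 at 2 h (-1.07, -1.55 to -0.64), mRpL54 had 79.2 at 4 h and 159 at 2 h (-1.0), and mRpL24 had 334 at 4 h and 610 at 2 h (-0.87). Unlike mRpL46, these 3 had higher scaled counts at 20 h than at 4 h, with 103, 128 and 552. Cytoplasmic ribosomal proteins were level in the same cells, with 71 of 72 within 25% and a median of 0.00, and 49 of them are among the 100 genes that set the scale.

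Other genes of the mitochondrion are given beside them, with no test of a difference. Of 66 nuclear genes of oxidative phosphorylation, 58 were within 25% and 2 were lower, and the median lay at 0.01 from all genes. Of these, SdhA, the flavoprotein of succinate dehydrogenase, had 1781 at 4 h and 2773 at 2 h (log2 ratio -0.64, -0.72 to -0.56). Of 8 genes encoded in the mitochondrion, mt:ND2 was lower, with 332 at 4 h and 577 at 2 h (-0.80), and 6 were within 25%. A list of 14 mitochondrial aminoacyl tRNA synthetases, chosen after MetRS-m had been seen and so no independent evidence, had 4 members (28.6%) lower, against 12.8% of all genes, and a median 0.15 above all genes. Of the 10 early low members, 7 had levelled off and 2 were lower, and of the other 4, 2 had levelled off and 2 were lower. Besides MetRS-m these were GluRS-m, with 15.7 scaled counts at 4 h and 43.4 at 2 h, TyrRS-m, with 192 at 4 h and 394 at 2 h, and IleRS-m, with 56.2 at 4 h and 86.9 at 2 h.

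Several smaller groups had 1 or 2 members lower past 1.5-fold while the list median lay within 0.15 of all genes or above it. Over all genes 12.8% were lower. In the small RNA pathway, at -0.11 from all genes, AGO3, one of the PIWI proteins that silence transposons, was level until 2 h and lower afterwards. It had 1300 and 1394 scaled counts in the DMSO libraries and 1272, 1367, 813 and 536 at 1, 2, 4 and 20 h (log2 ratio of 4 h over 2 h -0.75, -0.87 to -0.63). The other PIWI proteins aub and piwi had log2 ratios of -0.53 and -0.41, short of 1.5-fold. Among 16 insulator and cohesin genes 2 (12.5%) were lower, near the share of all genes. These were Ibf2 (87.5 at 4 h and 190 at 2 h, -1.11) and BEAF-32 (299 at 4 h and 556 at 2 h, -0.89). Both encode insulator-binding proteins. Of 11 Integrator subunits 2 (18.2%) were lower, IntS9 (-0.76) and IntS11 (-0.64), which together form the RNA-cleaving module of the complex. IntS11 did not pass 1.5-fold with DESeq2 size factors. The other 9 were within 25% and the list median lay 0.19 above all genes. BEAF-32, IntS9 and IntS11 overlap genes on the other strand. In lipid synthesis bgm, a very long chain acyl-CoA synthetase, had 213 at 4 h and 392 at 2 h (-0.88, -1.12 to -0.65), and in glycolysis Pfk, phosphofructokinase, had 1391 at 4 h and 2379 at 2 h (-0.77, -0.87 to -0.68).

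RNA polymerase I, the enzyme that transcribes ribosomal RNA, was the list farthest above all genes. All 7 subunits tested lay above the median of all genes, none passed 1.5-fold and 5 were within 25%, with a median log2 ratio of 0.23 at a distance of 0.35, against 0.00 in the DMSO pair. Polr1B had 2182.4 and 2301 scaled counts in the DMSO libraries and 957, 699, 918 and 798 at 1, 2, 4 and 20 h (log2 ratio 0.39, 0.26 to 0.53). Polr1C had 1004 and 1033 in the DMSO libraries and 625, 560, 741 and 656 over the JQ1 times (0.40, 0.25 to 0.55). Both were thus lowest at 2 h and remained below DMSO at 4 and 20 h. At 1 h the list had been 0.34 below all genes, and between 1 and 20 h it lay at -0.12. In the step from 1 to 2 h it lay at -0.29 from all genes. That step shares the 2 h library with the ratio of 4 h over 2 h, so the 2 h value enters both with opposite sign.

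Genes of ribosome biogenesis also lay above all genes, with a median of 0.11 at a distance of 0.23 from all genes, against -0.01 in the DMSO pair. Of 34 tested, 28 lay above the median of all genes and 22 were within 25%. Past 1.5-fold 1 was higher and 1 (2.94%) lower, against 1.61% and 12.8% of all genes. The higher one was Dbp73D, an RNA helicase, with 1315 and 1387 scaled counts in the DMSO libraries and 564, 420, 649 and 665 at 1, 2, 4 and 20 h (log2 ratio 0.63, 0.46 to 0.80). The lower one was vito, a nucleolar protein, with 151 at 4 h and 244 at 2 h (-0.69, -0.98 to -0.41), which did not pass with DESeq2 size factors. Nle had 789 at 4 h and 583 at 2 h (0.44, 0.29 to 0.59), and Non3 had 1391 at 4 h and 1030 at 2 h (0.43, 0.32 to 0.54). In the step from 1 to 2 h, which shares the 2 h library, the list lay at -0.18 from all genes. Between 1 and 20 h the list lay at -0.03, so that its position above all genes was not seen in that pair of libraries.

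**Figure D5:**
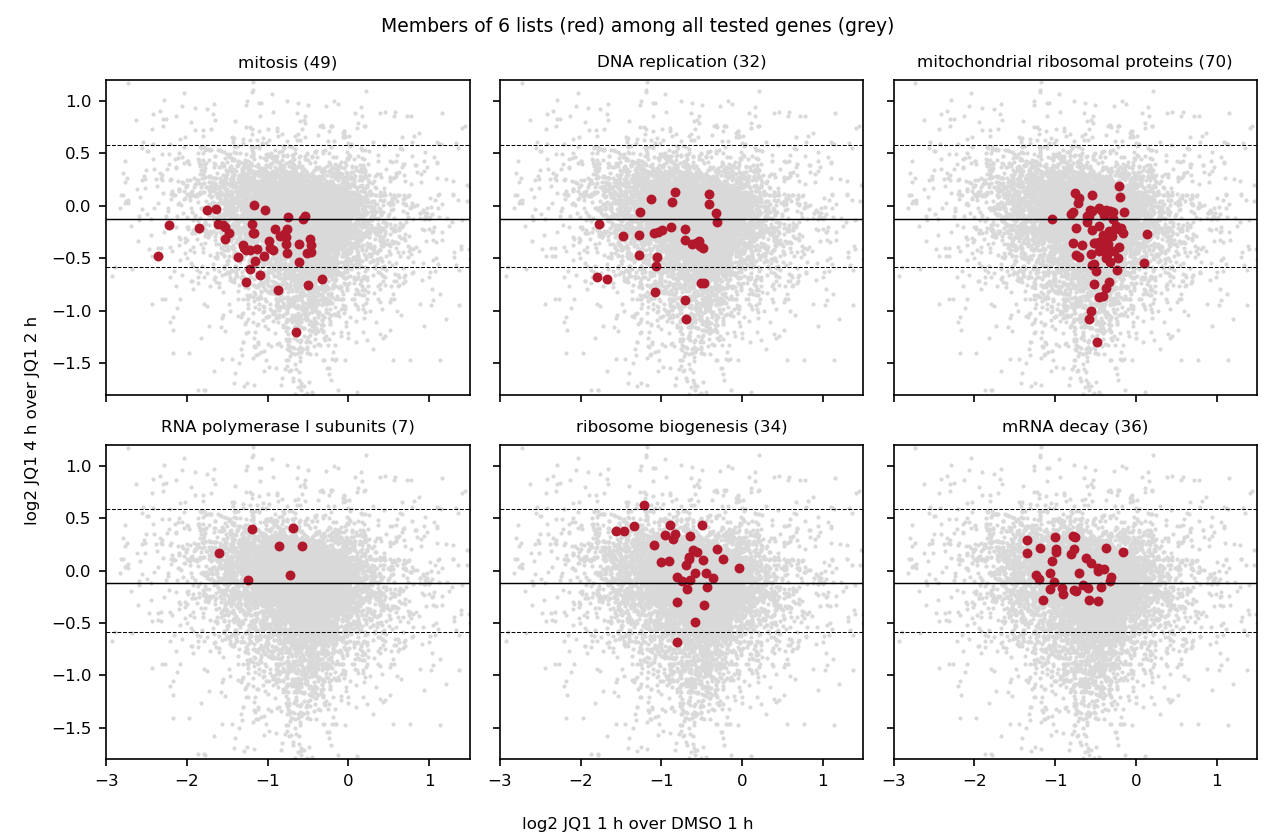
Log2 ratio of JQ1 4 h over 2 h (vertical axis) against log2 ratio of JQ1 1 h over DMSO 1 h (horizontal axis) for the members of 6 gene lists (red) among all tested genes within the plotted range (grey), with dashed lines at 1.5-fold and a solid line at the median of all genes. Of 49 mitosis genes 42 lie below the solid line, and all 7 RNA polymerase I subunits lie above it.

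For components of the transcription machinery the share within 25% is given beside the 67.0% of all genes. It was near that share for Mediator and for RNA polymerase II and III subunits. Over all genes it was 43.4% in the group with the lowest DMSO level and 86.2% in the top group. These lists were not matched for level. Of 23 TFIID and basal factors 21 (91.3%) were within 25%. Of 27 Mediator subunits none passed 1.5-fold, 19 (70.4%) were within 25% and the median of 0.00 lay at 0.12 from all genes. With DESeq2 size factors 2 of the 27 were higher past 1.5-fold, against 278 of 8681 genes. MED14 had 1195 at 4 h and 825 at 2 h (log2 ratio 0.53, 0.41 to 0.66) and MED25 had 454 at 4 h and 313 at 2 h (0.54, 0.34 to 0.74), after log2 ratios of -1.62 and -1.71 at 1 h against DMSO 1 h. Of 24 P-TEFb, pausing and elongation factors 20 (83.3%) were within 25% and none passed 1.5-fold, and the kinase gene Cdk9 had 684 at 4 h and 549 at 2 h (0.32, 0.16 to 0.47). Of 10 RNA polymerase II subunits 7 were within 25% and 1 (10%) was lower, against 12.8% of all genes. This was Polr2J, with 615 at 4 h and 982 at 2 h (-0.67, -0.81 to -0.54), and it overlaps a gene on the other strand. Of 9 RNA polymerase III subunits 6 were within 25% and 2 (22.2%) were lower. These were Polr3G with 83.8 at 4 h and 141 at 2 h (-0.75, -1.14 to -0.38) and Polr3C with 65.4 at 4 h and 105 at 2 h (-0.67, -1.12 to -0.25). Of 12 bromodomain genes including fs(1)h 11 were within 25%. Of 17 Polycomb group genes 15 were, although 8 of the 17 had been early low genes, of which 7 had levelled off. The exceptions were Kdm2 and Psc. Kdm2, a histone demethylase, was high at 1 h (log2 ratio 1.08) and had 5837 at 4 h and 8247 at 2 h (-0.50, -0.54 to -0.45). Psc, a subunit of the PRC1 complex, was low at 1 h (log2 ratio -1.57) and had 463 at 4 h and 607 at 2 h (-0.39, -0.56 to -0.22).

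In several lists nearly all members were within 25%, against 67.0% of all genes. Over all genes this share was 43.4% in the group with the lowest DMSO level and 86.2% in the top group. The lists were not matched for level. Of 36 mRNA decay genes 35 were within 25%, among them all 11 that had been early low genes, and the extremes were -0.29 and 0.33. Of 31 proteasome subunits 30 were within 25%, and the exception Rpn13 had 2241 at 4 h and 1729 at 2 h (0.37, 0.29 to 0.46). Of 28 genes of ER translocation and vesicle coats 27 were within 25%, and all 14 genes of JNK and AP-1 signalling were, with Jra, the fly Jun, at 0.30 (0.22 to 0.39).

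Among chaperones of the endoplasmic reticulum (ER), the gene past 1.5-fold was higher at 4 h. Hsc70-3, the fly BiP and main chaperone of the ER, had 50707 and 50025 scaled counts in the DMSO libraries and 48914, 71236, 117181 and 331931 at 1, 2, 4 and 20 h (log2 ratio of 4 h over 2 h 0.72, 0.71 to 0.73). Gp93, the ER member of the Hsp90 family, had 47129.6 at 4 h and 38548 at 2 h (0.29, 0.27 to 0.31), and Calr, calreticulin, had 59706 at 4 h and 53084 at 2 h (0.17, 0.15 to 0.19). Of 17 chaperones and genes of the unfolded protein response, 15 were within 25% and 1 was higher past 1.5-fold, against the background of 1.61%, and the median lay at 0.11. Between 1 and 20 h, in the other pair of JQ1 libraries, the list lay 1.15 above all genes.

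Blood cell genes went both ways. Of 21 phagocytosis receptors and matrix genes, 5 (23.8%) were lower, against 12.8% of all genes, 2 were higher and 11 were within 25%, and the median lay at 0.02 from all genes. The lower genes were all receptors or surface proteins of blood cells. Sr-CI, a scavenger receptor for bacteria, had 20231 and 21366 scaled counts in the DMSO libraries and 14425, 10953, 5405 and 6918 at 1, 2, 4 and 20 h (log2 ratio -1.02, -1.06 to -0.97), and NimC2 had 6.45 at 4 h and 20.4 at 2 h (-1.53, -3.12 to -0.41). He, crq and NimC1, named here after their values were seen, had log2 ratios of -0.63, -0.60 and -0.60, and did not pass 1.5-fold with DESeq2 size factors, where 2 of the 21 genes were lower. The higher genes encode secreted proteins, Ppn, described above, and Hml, the clotting factor hemolectin. Hml had 12722 and 13855 in the DMSO libraries and 12714, 21680, 32870 and 129703 over the JQ1 times (0.60, 0.58 to 0.62).

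The Imd pathway is the response of fly cells to bacterial peptidoglycan. Of its 18 genes 3 (16.7%) were lower, near the 12.8% of all genes, and none was higher. PGRP-LB, an amidase that degrades peptidoglycan and restrains the pathway, had 516 and 486 scaled counts in the DMSO libraries and 335, 213, 82.0 and 17.0 at 1, 2, 4 and 20 h (log2 ratio -1.37, -1.74 to -1.02). The sensor PGRP-LE had 59.9 at 4 h and 97.9 at 2 h (-0.70, -1.17 to -0.26), and PGRP-SD had too few reads for its ratio, with 5.53 at 4 h and 10.2 at 2 h. Rel, the NF-kappaB factor of the pathway, had 10141 at 4 h and 7878 at 2 h (0.36, 0.32 to 0.40). Of 11 antimicrobial peptides 2 were higher, AttB with 47.0 at 4 h and 27.2 at 2 h (0.76, 0.12 to 1.47) and Mtk with 14.7 at 4 h and 7.66 at 2 h, whose interval of -0.32 to 2.30 includes 0. In the DMSO pair 3 of the 11 were higher past 1.5-fold, so that these counts are not above the background.

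Detoxifying enzymes were looked at after the values of the highest genes had been seen, and their lists are a description. Of 56 cytochrome P450 genes 16 (28.6%) were lower and 2 were higher, against 12.8% and 1.61% of all genes and 25.03% lower in the group of genes with the lowest DMSO level, with a list median at -0.26 from all genes, against -0.05 in the DMSO pair, where none passed 1.5-fold. The higher ones were Cyp4e2 and Cyp6a8. Cyp6a8 had 6.68 and 9.10 scaled counts in the DMSO libraries, then 4.40, 5.96, 171 and 86.1 at 1, 2, 4 and 20 h of JQ1, from 186 reads at 4 h and 7 reads at 2 h. Its log2 ratio of 4.63 (3.77 to 6.18) was far above that of any other tested gene, while its mean over the 6 libraries was below 50 scaled counts. Of 29 glutathione S-transferases 3 were higher and 3 lower. Besides GstE3, GstD2 had 135 at 4 h and 79.2 at 2 h (0.77, 0.39 to 1.16), and GstZ1, which acts in tyrosine breakdown, had 71.8 at 4 h and 200 at 2 h (-1.47, -1.87 to -1.10).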

How the data were processed

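Single-end 50-cycle reads from polyadenylated RNA of 6 libraries were aligned by the authors with TopHat to the fly genome (BDGP5) with Ensembl gene models, and uniquely mapping reads were counted per gene with HTSeq. The deposited files hold these raw counts. Tool versions and the use of strand are not given in the sources used here. Lines that name no gene (5 per file, 21.9% to 27.3% of records) were left out.

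Counts were scaled by the median ratio over the 100 genes most abundant in DMSO. Genes averaging 10 or more scaled counts were compared as log2 of (scaled count + 1) ratios. Intervals are exact conditional binomial 95% intervals of the reads without the pseudocount and cover counting error only. With 1 library per condition no test was possible. A gene is called past 1.5-fold and levelled off within 25%. Symbols matched 13524 of 14869 identifiers and 7987 of 8690 tested genes. Arms, lengths and overlaps came from the release 6 annotation, and no coordinates are given because the builds differ. Python 3.11.15, numpy 2.4.6, pandas 2.3.3 and scipy 1.17.1 were used, with TMM factors from edgeR 4.0.16 and size factors from DESeq2 1.42.0 (R 4.3.3) as alternative scalings only. The calculation was tested on simulated data with counting error only. This checked the code, and not the choice of scaling or the variation between libraries.

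The comparison and the lists were chosen with earlier results of these data known, and 3 lists (P450s, glutathione S-transferases, mitochondrial tRNA synthetases) after the values were seen. Named were the 12 lowest and 12 highest ratios (mean of at least 50, symbol, interval without 0, DMSO pair within 1.5-fold), the 8 lowest and 4 highest at 1 h among levelled genes with a symbol and a mean of at least 50, up to 4 members per list farthest from the median of all genes, and fs(1)h. Alternatives changed scaling, filter, pseudocount, fold and the definition of classes. A result on an item withheld from this text is not reported here.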

Additional observations from a re-analysis of the deposited data

How the results depend on the processing

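No paired analysis was possible because each condition was 1 library, and for the same reason no replicate could be left out. The median log2 ratio of all genes was 0.0154 with the mitochondrially encoded genes as scale, -0.00811 with TMM factors and 0.0225 with DESeq2 size factors. The number of lower genes became 729 with the mitochondrial scale, 717 with DESeq2 size factors, 2321 without a filter and 336 past 2-fold. The number of higher genes became 261 with the mitochondrial scale, 244 with TMM factors, 278 with DESeq2 size factors, 1001 without a filter, 64 with a minimum of 50 scaled counts, 83 with the counting interval and 22 past 2-fold. Without a filter lower genes were 69.9% of those past 1.5-fold.

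The shares of early low genes still going down, levelled off and higher at 4 h were 9.66%, 60.8% and 5.92% with an index of 500 genes, 9.74%, 60.9% and 5.36% with total counts, 8.21%, 58.5% and 6.73% with the mitochondrial scale, 6.44%, 53.01% and 10.8% with TMM factors, and 6.68%, 50% and 13.4% with DESeq2 size factors. They were 19.2%, 52.1% and 10.3% without a filter, 9.65%, 69.1% and 2.34% with a minimum of 50, and 8.45%, 59.8% and 6.25% when levelled off was set around the median of all genes. With a pseudocount of 5, 9.23% still went down and 68.3% had levelled off, and with early change by 1.5-fold 1.95% were higher. Early low genes numbered 481 with TMM factors and 434 with DESeq2 size factors. Under TMM factors and DESeq2 size factors more early low genes were higher than lower at 4 h. The cause of these shifts was not tested. Of 259 values of the named genes under the alternatives, 25 left the counting interval of the main value, and no gene past 1.5-fold changed direction. Depth limits the ratios of genes with few reads, whose counting intervals are wide.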
